A study of Mus musculus with 8 samples.

Results

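CD4+ T cells that are not regulatory were compared between mice whose T cells all carry 1 T cell receptor (monoclonal) and mice with a normal, diverse receptor repertoire (polyclonal). The comparison uses the libraries made from reporter-negative cells, 2 per kind of mouse, which are 4 of the 8 RNA sequencing libraries of the series, all 4 of them used. All cells came from spleen and were sorted as CD4+ and lacking the fluorescence of a GFP reporter for Foxp3, the factor on which the identity of regulatory T (Treg) cells rests. The monoclonal cells came from NOD.TCRab.FoxP3GFP.Rag-/- mice, labelled NT, and the series title ties the model to nuclear transfer. The polyclonal cells came from NOD.FoxP3GFP mice, labelled WT. Both strains share the NOD background, on which autoimmune diabetes develops spontaneously, and the Foxp3 reporter. The receptor genes and the Rag deletion occur only in the monoclonal strain, so receptor, Rag genotype and strain cannot be told apart. The labels give neither the age of the mice nor whether replicates A and B stem from different mice. The p-values therefore rest on a spread between samples that may be technical. The series design sets these cells beside Treg cells of the same strains, and the 4 Treg libraries are used here for the spread and for 1 comparison.

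Conventional CD4+ T cells leave the thymus naive, recirculate through the spleen and, once their receptor meets antigen on an antigen-presenting cell, turn into helper, follicular helper, effector or memory cells. Receptor signalling induces immediate early transcription factors such as Egr1, Fos and Nr4a1. Rag1 and Rag2 together form the recombinase that assembles antigen receptors in T and B cells, so a mouse without either gene makes no B cells, and has only T cells whose receptor is supplied as finished genes. Dendritic cells, the main antigen-presenting cells of T cell zones, do not need Rag, and part of the dendritic cells of mouse spleen carries CD4 on its surface.

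Levels are in CPM, the reads of a gene scaled to 1000000 reads assigned to genes. The 4 libraries held 15492330 to 18033924 reads, and a gene without a read could be present at up to 0.166 to 0.194 CPM (3 reads; counting error only). Differences are monoclonal minus polyclonal on the log2(CPM + 1) scale with their standard error, 2 libraries a group, and this scale understates changes of low genes. They were called with limma at a Benjamini-Hochberg adjusted p below 0.05 over 12881 genes. Across genes, which are not independent replicates, the log2 levels of replicates A and B correlated at 0.985 in monoclonal and 0.991 in polyclonal libraries. A difference between the groups can stem from fewer cells of a type or from less RNA per cell, which bulk libraries cannot tell apart.

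The label checks came out as follows. Cd4 measured 1257 and 1359.6 CPM in the monoclonal replicates (A, then B) and 1606 and 1664 CPM in polyclonal ones. Its difference of -0.32 ± 0.10 (adjusted p = 0.0428) lost the call without any 1 of the 4 libraries and turned to 0.18 when libraries were scaled to their CD3 genes. Cd3e, a subunit of the receptor complex, measured 454 and 406 CPM against 623 and 659 CPM (-0.58 ± 0.13, adjusted p = 0.00405, a call lost without replicate B of either group). The groups did not overlap, as in every called gene. Foxp3, the sorted reporter's gene (chromosome X, 7156802 to 7172369 on mm9), measured 405 and 319 CPM in monoclonal and 81.9 and 84.2 CPM in polyclonal reporter-negative cells, against 2709 and 2667 CPM and 2349 and 2281 CPM in the Treg cells sorted from these strains. Both reporter-negative groups thus lay far below their Treg counterparts, and the monoclonal group lay 2.10 ± 0.12 above the polyclonal one (adjusted p = 1.31e-08). Rag1 measured 3.27 and 8.96 CPM against 0.57 and 0 CPM, a call lost in edgeR and without replicate B of either group, and Rag2 had 1 read in all 4 libraries. Which Rag gene was deleted, and which part of it, is not given in the labels, and the reads therefore check nothing.

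Of the 12881 genes tested, 2505 (19.4%) differed between monoclonal and polyclonal non-Treg cells. The larger share, 1558 genes or 12.1%, was higher in monoclonal cells, and 947 genes or 7.35% were lower. The counts of every gene list below are to be read beside these shares. The sizes were uneven: 1243 genes were at least 2-fold higher and 444 at least 8-fold higher, against 238 and 11 genes lower by those folds. The genes called higher together held 171943 and 186874 CPM in monoclonal replicates A and B, against 57240 and 57480 CPM in the polyclonal ones. The median difference of all tested genes was -0.067, with quartiles of -0.32 and 0.29. The call count was 1373 to 1627 when 1 of the 4 libraries was left out (lowest without monoclonal replicate B), 4413 when the 4 libraries were fitted without the Treg libraries, and 1975 in edgeR. The split of calls into higher and lower depended on the scaling: 62.2% were higher as deposited, 71.8% with TMM factors and 95.3% when each library was scaled to its summed CD3 genes, a step that raised the median of all genes by 0.47.

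**Figure D1:**
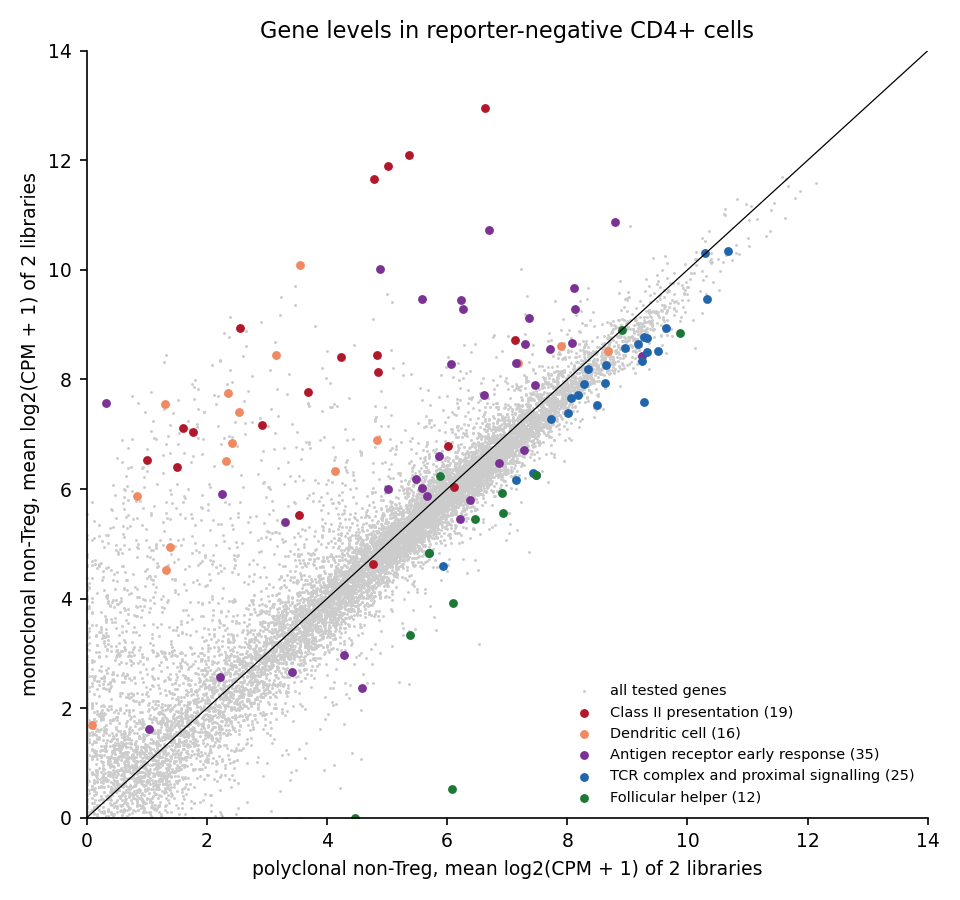
Mean log2(CPM + 1) of the 2 libraries of each group, polyclonal non-Treg cells on the x axis and monoclonal non-Treg cells on the y axis, with 5 gene lists coloured, their number of tested genes in the legend, and a line where both are equal. Class II and dendritic cell genes lie far above the line, T cell receptor complex and follicular helper genes mostly below it.

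Among the genes raised most in monoclonal non-Treg libraries were those of the class II antigen presentation pathway, which loads peptides for recognition by CD4+ T cells and which mouse T cells themselves hardly use. Of 19 pathway genes, all of them tested, 17 were higher and 0 lower, with a median difference of 4.25 (12.1% of all genes were called higher and the median of all was -0.067). Cd74 encodes the invariant chain, a chaperone of these molecules, and reached 7342 and 8497 CPM against 86.4 and 110.4 CPM, a difference of 6.32 ± 0.15 (adjusted p = 6.25e-12). H2-Aa, H2-Ab1 and H2-Eb1 encode the chains of the class II molecules themselves. H2-Aa (chromosome 17, 34419696 to 34424716 on mm9) measured 4219 and 4515 CPM against 36.9 and 44.2 CPM, H2-Ab1 3116 and 3343 against 22.3 and 31.8 CPM, and H2-Eb1 (chromosome 17, 34442812 to 34453619) 3596 and 4042 against 26.9 and 36.1 CPM. Monoclonal and polyclonal libraries lay about 2 orders of magnitude apart for each of these chains, with the replicates close together. Ciita, the master regulator of the class II promoters, rose from 3.67 and 6.39 to 429 and 565 CPM (6.39 ± 0.29, adjusted p = 1.12e-09). The H2-DM and H2-O genes of the pathway followed: H2-DMa, H2-DMb1, H2-DMb2, H2-Oa and H2-Ob differed by 4.10 to 5.52 on the log2 scale. The proteases Ctss and Lgmn, which also serve other cells, differed by 1.59 ± 0.17 and 1.99 ± 0.22. Rfx5, a subunit of the factor that binds these promoters together with Ciita, was higher by 0.76 ± 0.17, a call lost without monoclonal replicate B or polyclonal replicate A, while its partners Rfxank (-0.077 ± 0.19) and Rfxap (-0.12 ± 0.23) did not pass the test.

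Class II promoters are a textbook case of a shared regulatory module, in which an X box bound by the Rfx factors sits a fixed distance upstream of a Y box bound by the trimeric factor NF-Y, with Ciita docking on both. The module is shown because its genes moved together here. RefSeq promoters on GRCm38.p6, a later build than the mm9 of the expression table, were matched by symbol for 14 of the 19 pathway genes. Below are the 130 bases from 150 to 21 bases before the start site, read 5′ to 3′ along the gene, with capitals marking the X box core AACNNATG and the Y box GATTGG on either strand.
H2-Eb1 (chr17:34305717-34305846, plus strand): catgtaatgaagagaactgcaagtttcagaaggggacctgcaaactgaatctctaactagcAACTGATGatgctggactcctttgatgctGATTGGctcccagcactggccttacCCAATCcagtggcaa
H2-Eb2 (chr17:34325525-34325654, plus strand): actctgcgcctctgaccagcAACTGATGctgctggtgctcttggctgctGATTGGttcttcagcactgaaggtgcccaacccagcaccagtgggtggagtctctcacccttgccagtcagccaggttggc
H2-DMb1 (chr17:34153041-34153170, plus strand): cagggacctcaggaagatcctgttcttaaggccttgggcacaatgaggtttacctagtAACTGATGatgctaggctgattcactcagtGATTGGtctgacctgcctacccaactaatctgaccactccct
H2-DMb2 (chr17:34145099-34145228, plus strand): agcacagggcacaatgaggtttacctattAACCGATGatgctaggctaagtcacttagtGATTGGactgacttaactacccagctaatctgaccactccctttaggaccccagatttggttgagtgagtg
H2-Ob (chr17:34238755-34238884, plus strand): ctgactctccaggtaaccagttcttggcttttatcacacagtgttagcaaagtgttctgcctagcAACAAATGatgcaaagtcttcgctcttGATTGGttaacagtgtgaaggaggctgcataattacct
H2-Aa (chr17:34287844-34287973, minus strand): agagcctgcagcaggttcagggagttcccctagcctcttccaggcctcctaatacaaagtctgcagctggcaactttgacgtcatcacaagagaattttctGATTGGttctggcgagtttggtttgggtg
H2-Oa (chr17:34092229-34092358, plus strand): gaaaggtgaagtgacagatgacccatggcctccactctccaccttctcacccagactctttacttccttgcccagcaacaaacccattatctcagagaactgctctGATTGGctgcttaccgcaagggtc
In H2-Eb1, H2-Eb2, H2-DMb1, H2-DMb2 and H2-Ob both motifs occurred, and 19 to 22 bases separated the end of the X box core from the start of the Y box. H2-Aa and H2-Oa held the Y box without a match to the X box letters used. Over all 32851 promoters of the table, the same window held the X box core in 3.96%, the Y box in 9.94% and both in 0.356%. Of the 14 matched genes, which have 16 promoters, 5 held both motifs and 8 the Y box. H2-DMa, Ctss, Ctsz, Ifi30 and Lgmn held neither in this window and were called higher too, and Rfxank held neither and was not called. All 7 genes shown were higher in monoclonal libraries, from 4.17 for H2-Ob to 6.89 for H2-Eb1. Rfx5, whose window is not shown, held the Y box without the X box core and was higher by only 0.76, a call lost without some libraries. A motif match describes the sequence and does not show that a factor was bound.

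Genes that mark dendritic cells rose with class II. Of 17 dendritic cell markers 16 could be tested, and 15 were higher in monoclonal libraries and 0 lower, with a median difference of 3.86. Itgax, the gene of CD11c, an integrin typical of dendritic cells (chromosome 7, 135273082 to 135294171 on mm9), measured 961 and 1234 CPM in the monoclonal replicates (A, then B) and 10.4 and 10.9 CPM in polyclonal ones (6.54 ± 0.37, adjusted p = 1.26e-07). Flt3, the receptor for the growth factor that dendritic cells depend on, measured 195 and 238 against 3.99 and 4.20 CPM, and Zbtb46, a transcription factor restricted to classical dendritic cells among leukocytes, 51.8 and 64.4 against 0.696 and 0.904 CPM. Cd209a, a lectin of dendritic cells, differed by 6.25 ± 0.36 and Tbc1d8 by 5.30 ± 0.23. The polyclonal libraries were not free of these transcripts. The 2 groups did not overlap for any of the 5 genes, nor for any of the 2505 called genes. Ccr7, which naive T cells and migrating dendritic cells share, was the tested marker that did not pass (-0.15 ± 0.17), and Ccl17 had no read in any of the 4 libraries.

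Markers of each dendritic cell type were raised, and the types were not compared by a test. Of 17 type 2 markers, 12 were higher and 2 lower, with a median of 2.04. Sirpa, a surface receptor of type 2 dendritic cells, measured 502 and 663 against 8.04 and 8.65 CPM. Clec4a4, the lectin DCIR2 of the CD4+ dendritic cells of mouse spleen, measured 47.1 and 61.1 against 0.127 and 0 CPM, and Esam, an adhesion molecule of the Notch2-dependent subset, 23.7 and 22.4 against 0.633 and 0.387 CPM. The lectins Clec4a2 and Clec10a differed by 5.15 ± 0.42 and 3.96 ± 0.44. The members that were lower, Tbx21 (-1.33 ± 0.26) and Dtx1 (-1.02 ± 0.15), are also expressed in T cells, as a helper 1 factor and a Notch target, and neither passed the test on a scale set by the CD3 genes. Of 13 type 1 markers tested, 8 were higher and 0 lower, with a median of 1.76. Wdfy4, which type 1 dendritic cells need for cross-presentation, had the largest difference, at 681 and 1011 against 10.6 and 9.62 CPM (6.22 ± 0.26, adjusted p = 6.57e-10). Clec9a, a receptor for dead cells, measured 14.9 and 11.9 against 1.01 and 0.581 CPM, the adhesion molecule Cadm1 41.4 and 29.1 against 3.42 and 4.26 CPM and the RNA sensor Tlr3 8.59 and 16.2 against 0.253 and 1.55 CPM. The chemokine receptor Xcr1, at 1.72 and 0 against 0.316 and 1.23 CPM, did not pass the test. Batf3, a transcription factor that type 1 dendritic cells need, was higher by 4.56 ± 0.39. Of 14 markers of plasmacytoid dendritic cells, the interferon producers, 10 were higher and 0 lower, with a median of 2.22, among them the lectin Siglech (254 and 177 against 10.9 and 7.42 CPM) and the nucleic acid sensors Tlr7 (3.62 ± 0.30) and Tlr9 (4.59 ± 0.41). Tcf4, the factor that specifies these cells, measured 137 and 101 against 15.9 and 12.0 CPM, and Klk1 was higher by 4.43 ± 0.56.

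Markers of other white cells were raised unevenly. Of 23 macrophage and monocyte genes tested, 14 were higher and 0 lower. Emr1 (F4/80) measured 118 and 155 against 1.96 and 2.58 CPM, the adaptor Tyrobp 269 and 262 against 4.43 and 7.29 CPM, the Fc receptor chain Fcer1g 116 and 128 against 3.23 and 2.07 CPM and Csf1r, the receptor for macrophage growth factor, 108 and 136 against 5.25 and 2.78 CPM. Lyz2, the lysozyme of myeloid cells, differed by 4.32 ± 0.45. The complement genes C1qa, C1qb and C1qc, and Mertk, which mark tissue macrophages, stayed at or below 6.13 CPM in monoclonal libraries and did not pass the test. Neutrophil genes split the monoclonal replicates. Ngp, a neutrophil granule protein, measured 80.2 and 14.9 CPM in replicates A and B, and S100a9, a subunit of calprotectin, 157 and 21.5 CPM, against 0.633 and 0 and 0.316 and 0.452 CPM in the polyclonal ones. The 17 neutrophil genes summed to 823 CPM in monoclonal replicate A and 292 CPM in B, against 50.8 and 26.2 CPM in the polyclonal replicates. Of the 17, 12 were called higher, 7 without replicate A of either group and 5 without polyclonal replicate B, and the calls of S100a8, S100a9, Ngp and Ltf were lost in edgeR.

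B cell markers rose from low levels, while Pax5, Ms4a1 and Cd79a stayed near 0. Of 19 B cell markers 14 could be tested, and 11 were higher in monoclonal cells and 0 lower. Bcl11a (106 and 120.3 against 4.94 and 3.87 CPM) and Spib (104 and 78.6 against 4.68 and 3.42 CPM), which plasmacytoid dendritic cells also express, and the inhibitory receptor Cd72 (65.3 and 48.3 against 1.90 and 2.32 CPM) led the list. They were followed by Bank1, an adaptor of the B cell receptor (13.7 and 16.5 against 0.759 and 0.258 CPM), and the complement receptor Cr2 (10.3 and 19.0 against 0.57 and 0.323 CPM). Pax5, the factor that commits cells to the B lineage, measured 0.111 and 0 CPM in monoclonal and 0 and 0 CPM in polyclonal libraries, Ms4a1 (CD20) 0.555 and 0.645 and 0.57 and 0 CPM, and Cd79a, part of the B cell receptor, 1.16 and 0.516 and 0.253 and 0.839 CPM. Igj, the joining chain of secreted antibodies made by plasma cells, went the other way, with 0.333 and 0.58 CPM in monoclonal and 75.6 and 60.9 CPM in polyclonal libraries, the largest decrease of the named genes (-5.57 ± 0.38, adjusted p = 6.09e-08). Other plasma cell genes did not follow Igj. Of 8 tested, 1 was lower and 2 higher, with a median of 0.39 (7.35% and 12.1% of all genes). The higher ones, Xbp1 (0.76) and Irf4 (0.74), lost their calls without monoclonal replicate B or polyclonal replicate A. Of the natural killer list, 4 of 14 tested genes were higher, beside 12.1% of all genes. They included Klrd1 (53.1 and 54.2 against 10.8 and 9.17 CPM) and Ncr1 (10.3 and 8.13 against 1.39 and 0.387 CPM). Eomes, a factor of natural killer and memory T cells, was lower at 9.98 and 4.39 against 21.5 and 21.2 CPM. Its call was lost under CD3 scaling (-1.09) and without monoclonal replicate B or either polyclonal replicate. Cd8a, which marks cytotoxic T cells, measured 0.943 and 1.42 CPM in monoclonal libraries. Kit, the stem cell factor receptor, measured 232 and 288 against 15.8 and 13.9 CPM, while the mast cell genes Cpa3 (0.222 and 1.42 CPM) and Mcpt8 (0 and 0 CPM) were near or at 0 in the same libraries.

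The summed level of the 17 dendritic cell markers was 3459 and 3755 CPM in the monoclonal and 859 and 898 CPM in the polyclonal non-Treg libraries, 1119 and 1102 CPM in monoclonal Treg and 875 and 1021 CPM in polyclonal Treg libraries. The polyclonal sums rest largely on Ccr7, Traf1 and Dpp4, which T cells express too. Dendritic cell and class II genes also differed between monoclonal and polyclonal Treg libraries: 10 of the 16 dendritic cell markers were higher and 4 lower there, with a median of 2.95, and 15 of 19 class II genes were higher and 1 lower. Of all 12881 genes, 1553 were higher and 1563 lower in monoclonal Treg libraries. Itgax measured 245 and 241 against 8.45 and 2.13 CPM in Treg libraries. The signal thus moves with the strain in both sorted populations, and its part in the differences of other genes was not tested.

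**Figure D2:**
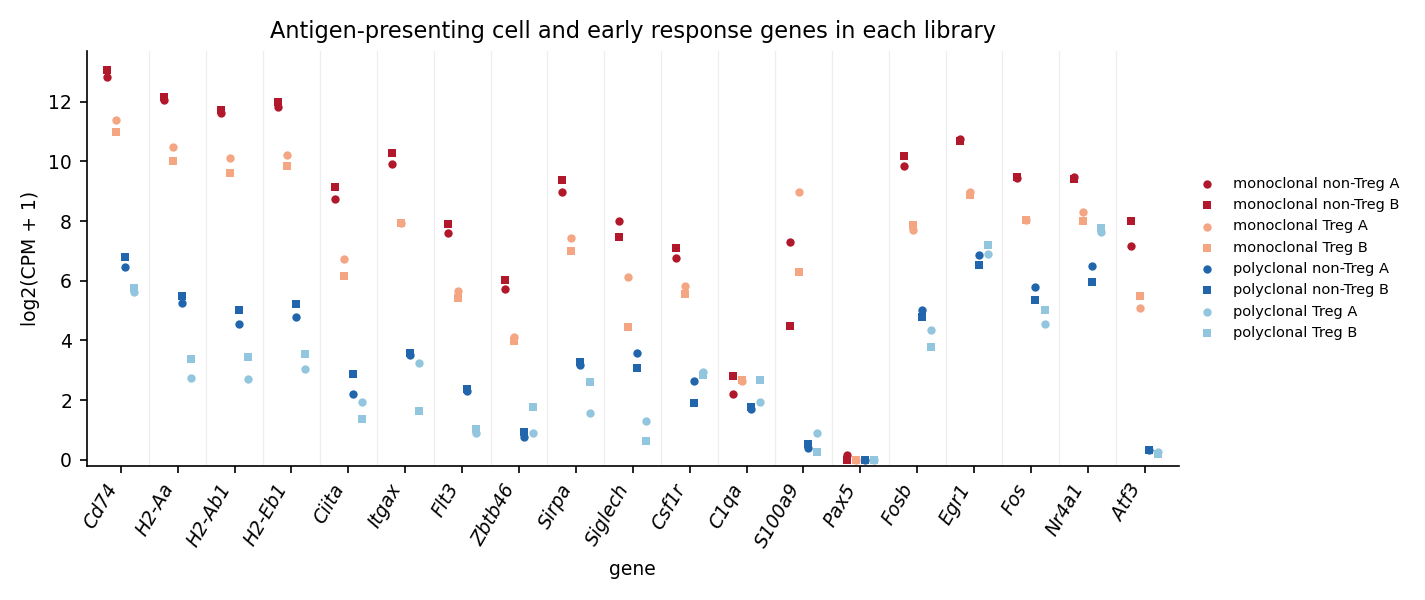
Level of 19 genes, as log2(CPM + 1) on the y axis, in each of the 8 libraries (circles, replicate A; squares, replicate B; colours, groups). Class II and dendritic cell genes are highest in the monoclonal non-Treg libraries, intermediate in monoclonal Treg and lowest in polyclonal libraries, while C1qa is low and Pax5 is at or near 0 in every library.

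Immediate early genes, which many stimuli induce within minutes and which receptor signalling induces in T cells, were higher in monoclonal cells. Of 35 genes of the antigen receptor early response, 22 were higher and 7 lower, with a median of 0.83. Egr1, a zinc finger factor, measured 1739 and 1640.1 CPM in monoclonal replicates against 117 and 90.6 CPM (4.02 ± 0.14, adjusted p = 1.16e-10). The AP-1 subunits Fos and Fosb measured 701 and 716 against 54.6 and 40.3 CPM and 923 and 1167 against 31.1 and 26.3 CPM. Nr4a1 (Nur77), widely used as a reporter of receptor signalling, measured 718 and 678 against 90.1 and 60.8 CPM. Atf3, a stress-induced factor, had the largest difference of all named genes, at 141 and 257 CPM against 0.253 and 0.258 CPM (7.25 ± 0.35, adjusted p = 2.08e-09). Levels of these 5 genes were alike in the monoclonal replicates except for Atf3, and no polyclonal library came near. Jun measured 654 and 595 against 119 and 48.2 CPM, with the polyclonal replicates more than 2-fold apart, and its call was lost in the fit on 4 libraries.

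The receptor-linked genes of the list did not move as a block. Nr4a3, another target of receptor signalling, measured 5.10 and 5.61 against 9.81 and 9.49 CPM and Egr3 62.9 and 52.4 against 49.3 and 50.3 CPM, and neither passed the test. Egr2, a target that restrains T cell activation, was higher by 0.98 ± 0.21, a call lost without polyclonal replicate A. Cd69, an early activation marker, measured 62.4 and 47.8 against 80.4 and 83.8 CPM and was lower (-0.58 ± 0.17, adjusted p = 0.0291). Cd5, whose level follows the strength of self-recognition, was lower as well, at 347 and 344 against 631 and 584 CPM (-0.81 ± 0.12), and so were Icos (-1.23 ± 0.13), the costimulatory receptor Tnfrsf9 (-1.32 ± 0.31) and the feedback inhibitor Spry1 (-2.22 ± 0.64). The calls of Cd69 and Spry1 were lost in edgeR and without monoclonal replicate B or either polyclonal replicate, and that of Tnfrsf9 without monoclonal replicate B. With the CD3 genes as the scale, Cd5 and Cd69 measured -0.31 and -0.084, and neither passed the test. The list had 23 higher and 3 lower calls on that scale, and 17 to 19 higher and 2 to 6 lower calls without 1 library (fewest lower without monoclonal replicate B).

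Interferon-stimulated genes were partly raised. Of 33 tested, 14 were higher and 0 lower, with a median of 0.75, and 7 to 10 were higher without 1 library (fewest without polyclonal replicate A). Bst2 (tetherin), which is also constitutive on plasmacytoid dendritic cells, measured 139 and 110.4 against 27.2 and 29.4 CPM, Oasl2 52.6 and 68.7 against 14.2 and 15.8 CPM, and the antiviral GTPase Mx1 was higher by 1.72 ± 0.26. Isg15 (17.0 and 12.9 against 7.40 and 8.84 CPM), Ifit1 (26.0 and 28.7 against 12.5 and 19.9 CPM) and Irf7 did not pass the test as deposited. On the CD3 scale 23 of the 33 were higher and 0 lower, and these 3 genes passed, at 1.27, 1.24 and 0.93. The interferon response core, which is GAAA, any 2 bases and GAAA again on either strand, occurred in the promoter window of 11 of the 25 matched genes of the list, against 1.33% of all promoters. The 25 genes have 31 promoters, so the 2 shares are not counted alike. Of the genes with the core, Bst2, Gbp3 and Rsad2 were called higher, and the larger part was not called. The windows of Bst2 (called higher) and Isg15 (not called as deposited) are shown with the core in capitals.
Bst2 (chr8:71537493-71537622, minus strand): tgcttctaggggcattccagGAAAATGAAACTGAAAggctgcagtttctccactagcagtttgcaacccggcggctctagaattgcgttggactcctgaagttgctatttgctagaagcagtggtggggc
Isg15 (chr4:156200839-156200968, minus strand): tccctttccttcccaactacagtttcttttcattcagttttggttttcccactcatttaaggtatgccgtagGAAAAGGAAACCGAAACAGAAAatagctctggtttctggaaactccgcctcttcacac

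Among the largest increases was a member of the neutrophil list, Il1b, which encodes the cytokine interleukin-1β and measured 238 and 182 against 0.506 and 0.904 CPM. Outside the lists, Rnd3, an atypical small GTPase, measured 298 and 402 against 1.01 and 2.07 CPM, Plbd1 494 and 646 against 3.23 and 5.42 CPM, the macrophage elastase Mmp12 149 and 190.1 against 0.506 and 1.55 CPM, and the secreted DNase Dnase1l3 reached 399 and 477 CPM. Stra6l, the inhibitory receptor Cd300a, Tgfbi and Adam23 differed by 6.58 to 7.03. Each of these genes was under 7 CPM in both polyclonal libraries. Among genes without a read in either polyclonal library, Ptgs2, the inducible prostaglandin synthase, reached 37.9 and 31.7 CPM and was at least 181-fold higher in monoclonal cells (against 3 reads a library), and Rtn1 reached 36.9 and 56.4 CPM, at least 243-fold higher.

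Genes of the T cell receptor complex and its proximal signalling were lower in monoclonal libraries. Of 25 such genes, 19 were lower and 0 higher, against 7.35% of all genes called lower, with a median of -0.63. That median was -0.13, with 2 genes lower and 0 higher, after scaling to the CD3 genes, which are members of the list, and 11 to 15 genes were lower without 1 library (fewest without monoclonal replicate B). Cd28, the main costimulatory receptor, measured 195 and 186 CPM in monoclonal and 585 and 651 CPM in polyclonal cells (-1.69 ± 0.13, adjusted p = 2.62e-07). It remained lower on the CD3 scale (-1.19, adjusted p = 0.00254), as did Trat1, a transmembrane adaptor that binds the receptor complex (20.8 and 26.1 against 58.4 and 61.8 CPM, -0.84 on the CD3 scale). The adaptor Lat, at 398 and 339.8 against 737 and 716 CPM, Themis, a signalling protein of thymic selection, at 76.3 and 77.7 against 165 and 179 CPM, and the phosphatase Ubash3a were lower as deposited by 0.98 to 1.15, and none of them passed the test on the CD3 scale. The summed CD3 genes that set this scale stood at 1470 and 1230 CPM in monoclonal and 1887 and 1928 CPM in polyclonal replicates.

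Transcription factors and surface receptors of naive T cells showed small differences. Of 18 T cell transcription factors, 8 were lower and 1 higher with a median of -0.45, which turned to 0.047 with 1 gene lower and 1 higher on the CD3 scale, and 5, 5 and 4 were lower without monoclonal replicate B, polyclonal replicate A and polyclonal replicate B. Tcf7, which maintains the naive state, measured 1389 and 1154 against 1787 and 1784 CPM (-0.50 ± 0.13, 0.0076 on the CD3 scale; the call was lost in edgeR and without any of those 3 libraries), and Id3, an inhibitor of E proteins, 9.26 and 9.93 against 25.8 and 32.5 CPM (-1.50 ± 0.26, -1.03 on the CD3 scale). The naive and quiescence list of 25 genes had 10 lower and 2 higher members with a median of -0.38, against 0 lower and 6 higher with a median of 0.12 on the CD3 scale, and 4 or 5 were lower without 1 library. Ccr7, a homing receptor for lymph nodes, did not differ detectably, at 409 and 330.5 against 400.3 and 419 CPM. Il7r, the interleukin-7 receptor, was lower at 511 and 464 against 792 and 903 CPM (-0.80 ± 0.12), and did not pass the test on the CD3 scale (-0.29). Igfbp4, a secreted protein typical of naive T cells, was higher on both scales, at 1074 and 744 against 449 and 490.0 CPM (0.93 ± 0.17), and so was Dapl1, at 101 and 77.0 against 31.6 and 26.9 CPM, whose call was lost without any 1 library. Of 8 Gimap GTPases, which sustain lymphocyte survival, 7 were lower with a median of -0.62, 3 without replicate B of either group, and 0 on the CD3 scale with a median of -0.13.

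Follicular helper genes were the list with the lowest median. Follicular helper T cells guide B cells in germinal centres. Of 12 genes tested, 9 were lower in monoclonal cells and 0 higher, with a median of -1.13 that did not change with Il21 set at its bound. On the CD3 scale the median was -0.63, with 5 genes lower and 1 higher, and 5 to 7 were lower without 1 library (fewest without monoclonal replicate B). Il21, the cytokine of these cells (chromosome 3, 37121681 to 37131558 on mm9), had no read in either monoclonal replicate and measured 19.9 and 22.5 CPM in polyclonal ones, at least 118-fold lower (against 3 reads a library). Cxcr5, the receptor that draws them into follicles, measured 15.5 and 12.8 against 61.0 and 75.3 CPM (-2.19 ± 0.25, adjusted p = 1.15e-05). Angptl2, a secreted protein, measured 1.05 and 0 against 69.1 and 64.5 CPM. Icos measured 71.8 and 78.6 against 177 and 178 CPM. Outside this list, Pdcd1 (PD-1), the inhibitory receptor these cells display, measured 9.54 and 10.2 against 46.6 and 40.0 CPM. Maf, a factor that drives interleukin-21 and also outside the list, measured 32.2 and 24.3 against 163 and 164 CPM. In Il21, Cxcr5, Angptl2, Icos, Pdcd1 and Maf both monoclonal replicates lay below both polyclonal ones, and the 2 groups were separate in all 2505 called genes. Each of the genes just named stayed lower on the CD3 scale, from -0.73 for Icos to -5.38 for Angptl2. Pou2af1, a coactivator also expressed in B cells, measured 8.71 and 9.42 against 41.6 and 40.0 CPM, a call lost in edgeR and without any 1 library. Bcl6, the lineage factor of follicular helper cells, measured 70.4 and 79.7 against 55.0 and 61.2 CPM and did not pass the test (0.36 ± 0.18), while on the CD3 scale it was called higher (0.86, adjusted p = 0.0129).

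Cytokines and receptors of other effector cells were lower as well, while a few effector genes were higher. Ifng (interferon-γ) measured 1.55 and 0.322 CPM in monoclonal and 16.3 and 13.0 CPM in polyclonal cells (-3.08 ± 0.51, adjusted p = 0.000447), and Fasl, the death ligand, 3.72 and 1.29 against 17.7 and 19.1 CPM. Of 14 helper 1 genes, 7 were lower and 4 higher, against 1 lower and 6 higher on the CD3 scale, and 3 were lower without replicate B of either group. The higher ones included the chemokine Ccl3 (35.9 and 21.3 against 0.506 and 0.516 CPM) and the homeobox factor Hlx (13.0 and 19.8 against 0.127 and 0.129 CPM), which myeloid cells express too. The helper 2 cytokines Il4, Il5 and Il13 had no read in monoclonal libraries and at most 2.26 CPM in polyclonal ones. Il4 was called lower (-1.62), a call lost in edgeR and without any 1 library. Of 8 helper 2 genes tested, 3 were lower and 0 higher, against 2 lower and 1 higher on the CD3 scale. Of 9 helper 17 genes tested, 1 was lower and 1 higher, near the shares of all genes (7.35% lower, 12.1% higher). The higher one was the xenobiotic sensor Ahr (58.0 and 63.9 against 16.3 and 19.7 CPM). Il17a and Il22 had 0 reads in the monoclonal and 5 and 4 reads in the polyclonal libraries together. Zbtb16 (PLZF), the factor that defines natural killer T cells, measured 0.333 and 0.58 against 18.3 and 16.8 CPM (-3.67 ± 0.46, adjusted p = 3.87e-05). Of 10 natural killer T cell genes 5 were lower and 0 higher (7.35% and 12.1% of all genes), against 2 lower and 1 higher on the CD3 scale.

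Effector and memory genes moved in both directions: of 30, 13 were lower and 9 higher, with a median of -0.058. On the CD3 scale 6 were lower and 12 higher, with a median of 0.44. Genes of trafficking and adhesion were among the lower ones. The integrin Itgb1, raised on memory cells, measured 380.0 and 382 against 1128 and 1110.0 CPM (-1.55 ± 0.12, -1.05 on the CD3 scale), the chemokine receptor Cxcr3 36.2 and 39.5 against 104 and 101 CPM and Cd44, the classical marker of experienced T cells, 100.1 and 101 against 211 and 210.4 CPM (-1.06 ± 0.14, -0.56 and not called on the CD3 scale). Cxcr6, at 12.7 and 10.7 against 54.0 and 54.5 CPM, lost its call in edgeR and without any 1 library. Klrg1, an inhibitory receptor of highly differentiated lymphocytes and of some Treg cells, was higher, at 87.2 and 45.0 CPM against 2.78 and 1.74 CPM (4.31 ± 0.28, adjusted p = 3.89e-08), and S100a11 was higher at 53.5 and 78.2 against 5.70 and 4.52 CPM. Ccr2, which T cells share with monocytes, was higher at 232 and 169 against 84.4 and 82.1 CPM. Of 20 genes of co-inhibition and anergy, 9 were lower and 2 higher, beside 7.35% and 12.1% of all genes. The median was -0.57, and -0.069 on the CD3 scale. Nt5e (CD73) and Cd200 were among the lower ones, at 43.2 and 29.3 against 132 and 127 CPM and 28.6 and 22.1 against 87.8 and 86.5 CPM. Havcr2 (TIM-3), which dendritic cells also carry, was higher, at 179.6 and 237 against 2.72 and 4.52 CPM, and Ctla4 (106 and 86.2 against 109 and 106 CPM), Lag3 and Tigit did not pass the test.

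**Figure D3:**
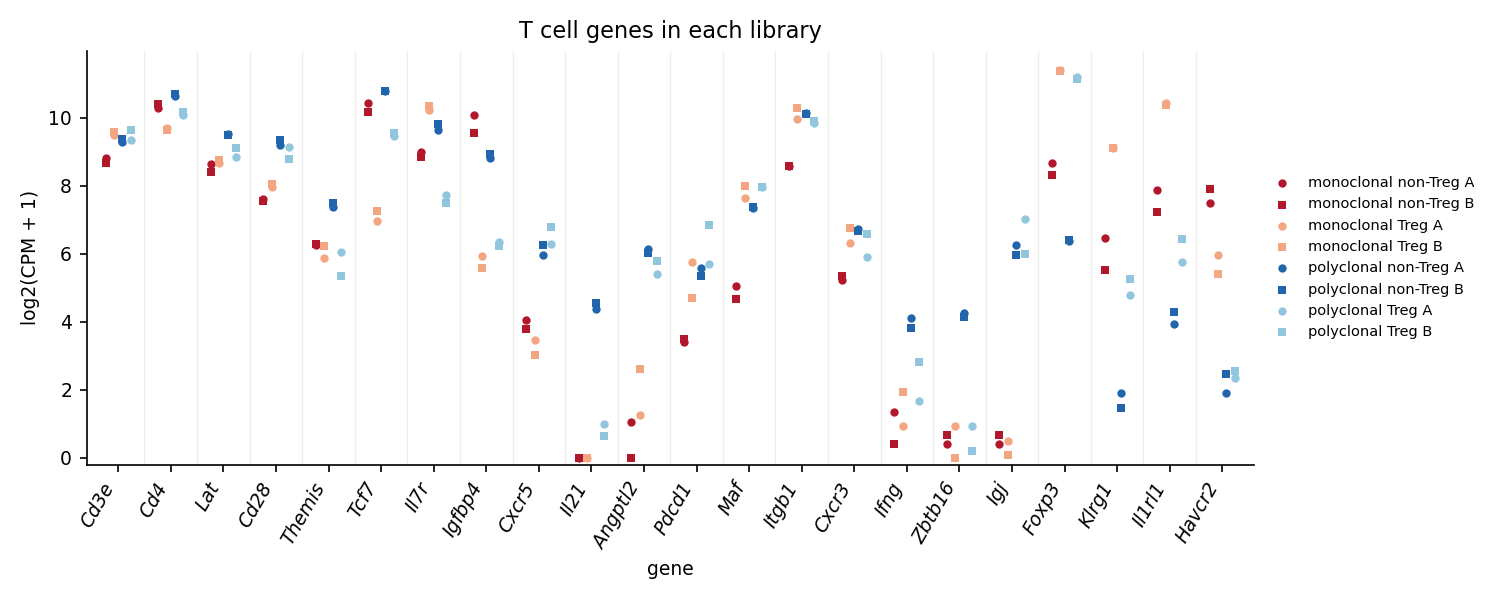
Level of 22 T cell genes, as log2(CPM + 1) on the y axis, in each of the 8 libraries (circles, replicate A; squares, replicate B; colours, groups). Il21, Angptl2, Zbtb16 and Igj sit at or near 0 in monoclonal non-Treg libraries, while Klrg1, Il1rl1 and Havcr2 are higher there than in the polyclonal ones.

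The largest decreases outside the lists were those of Lrig1, Emp1 and Nrn1. Lrig1, an inhibitor of growth factor receptors, measured 10.9 and 5.80 CPM in monoclonal and 95.2 and 87.8 CPM in polyclonal cells (-3.36 ± 0.30). The membrane protein Emp1 measured 3.60 and 5.48 against 41.0 and 39.5 CPM, Nrn1, a protein linked to anergic and regulatory T cells, 4.44 and 4.71 against 37.6 and 34.0 CPM, and the sialyltransferase St6galnac1 13.8 and 6.84 against 57.1 and 53.7 CPM. These 4 genes stayed lower under every alternative tried, by 1.92 or more on the log2 scale. Chst2 and Ccdc141 differed by -2.31 and -2.17, and the calls of Grhl1 and Wfikkn2 were lost without monoclonal replicate B and, for Wfikkn2, without polyclonal replicate B. Serpina9 and Edn3 had no read in monoclonal libraries and measured 11.3 and 10.2 and 3.73 and 6.52 CPM in polyclonal ones.

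Of 20 Treg signature genes, 8 were higher in monoclonal reporter-negative cells and 1 lower, with a median of 0.50, and 3 were lower without monoclonal replicate A. The members that rose were not the core of the signature apart from Foxp3. Il1rl1 (ST2), the interleukin-33 receptor of tissue Treg cells and type 2 innate lymphoid cells, measured 233 and 148 against 14.4 and 18.4 CPM (3.44 ± 0.22), and Fgl2, a secreted immunosuppressor that myeloid cells also make, 145 and 214 against 8.29 and 6.65 CPM. Ebi3, Entpd1 and Swap70, all of which antigen-presenting cells express too, were higher by 1.69 to 2.39. Il2ra (93.3 and 50.1 against 45.8 and 48.0 CPM), Ikzf2 (178 and 176 against 217 and 227 CPM), Nrp1, Ctla4 and Lrrc32 did not pass the test. Penk, the enkephalin precursor, was lower at 0.333 and 0.967 against 8.73 and 10.3 CPM. Foxp3 in monoclonal reporter-negative replicate A exceeded replicate B, as did Il2ra, Il1rl1 and Klrg1, while Fgl2 was higher in replicate B and Ikzf2 was alike in both. In sorted monoclonal Treg cells Il1rl1 measured 1377 and 1334 CPM and Klrg1 552 and 549.8 CPM. The reason for these replicate differences was not tested.

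**Figure D4:**
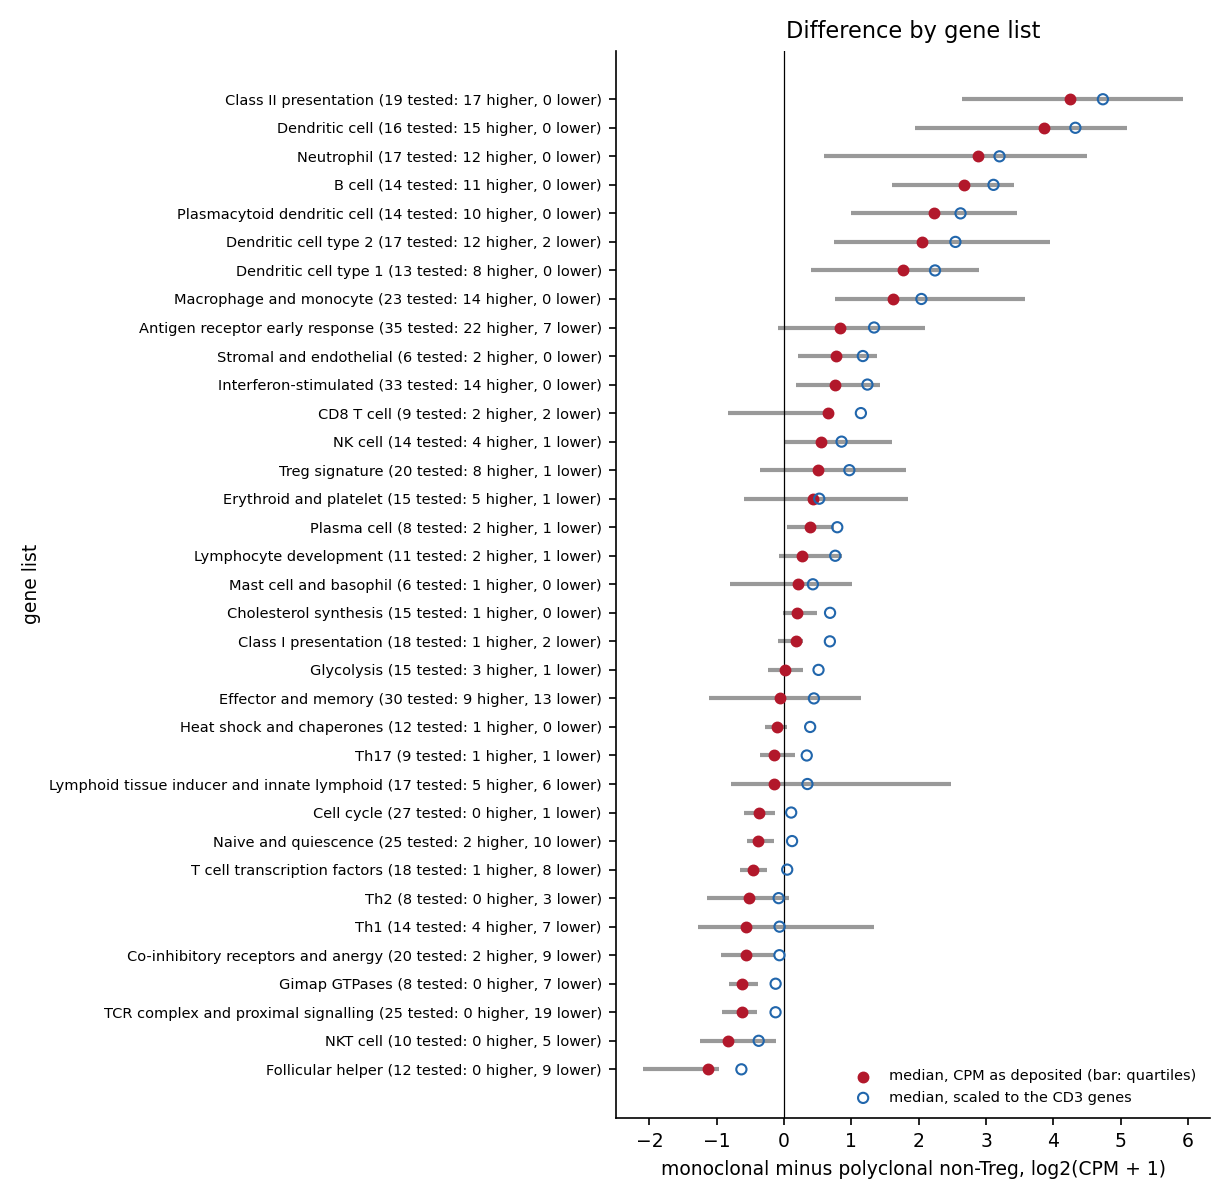
Median difference between monoclonal and polyclonal non-Treg cells on the log2(CPM + 1) scale (x axis) for each of 35 gene lists (y axis, with the numbers tested, higher and lower), as deposited (filled, bars from the lower to the upper quartile of the genes) and scaled to the CD3 genes (open). The class II and the general dendritic cell list lie above 3.8 on either scale, and naive, transcription factor and cell cycle lists cross 0 between the scales.

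Whether monoclonal and polyclonal cells differ in the same way among non-Treg and Treg cells was tested as the difference of the 2 contrasts. It passed for 1185 of 12881 genes (9.2%), 716 with a more positive and 469 with a more negative value in non-Treg cells. Leaving out monoclonal replicate B lowered these 1185 calls to 361, and leaving out another non-Treg library to 490 to 579. Of the 1558 genes higher in monoclonal non-Treg cells, 787 were also called higher in monoclonal Treg cells, beside 1553 of all 12881 genes. Among the 1558, the difference of the contrasts was more positive for 454 and more negative for 26. These genes were chosen on 1 of the 2 contrasts compared, so the counts are a description. Of the 19 class II genes, 9 had a more positive value in non-Treg cells and 0 a more negative one. Ciita rose by 6.39 ± 0.29 in non-Treg and 4.79 ± 0.29 in Treg cells, a difference of 1.60 ± 0.41 (adjusted p = 0.0255), while H2-Aa, H2-Ab1 and H2-Eb1 differed by -0.47 ± 0.27, 0.11 ± 0.32 and 0.15 ± 0.26 and did not pass. H2-Aa measured 1441 and 1037 CPM in monoclonal and 5.75 and 9.33 CPM in polyclonal Treg libraries, the latter below its level in polyclonal non-Treg libraries. Of the 35 genes of the antigen receptor early response, 11 had a more positive and 5 a more negative value in non-Treg cells. The immediate early genes Egr1, Nr4a1 and Fosb passed, with differences of 2.16 ± 0.20, 2.75 ± 0.24 and 1.41 ± 0.26. Fos (0.64 ± 0.24), Jun (0.85 ± 0.44), Junb (-0.72 ± 0.37) and Ier3 (-1.37 ± 0.46) did not pass.

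Several T cell genes that were lower in monoclonal non-Treg cells had a different value in Treg cells. Maf differed by -2.51 ± 0.16 in non-Treg and -0.16 ± 0.16 in Treg cells (difference -2.35 ± 0.22, adjusted p = 3.02e-05). Itgb1 differed by -1.55 ± 0.12 and 0.25 ± 0.12, Cxcr3 by -1.42 ± 0.21 and 0.29 ± 0.21, and St6galnac1 by -2.39 ± 0.29 and -0.05 ± 0.29, and each of these differences passed the test. The naive genes went the other way. Tcf7, Ccr7, Satb1 and Bach2 differed by -2.08 to -3.16 between monoclonal and polyclonal Treg cells, and their differences in non-Treg cells were 1.85 to 2.71 more positive. Il7r differed by 2.67 ± 0.12 in Treg and -0.80 ± 0.12 in non-Treg cells (difference -3.47 ± 0.17, adjusted p = 1.39e-07). Of the 25 naive and quiescence genes, 11 had a significantly more positive and 3 a more negative difference in non-Treg cells. Of the 30 effector and memory genes, 1 was more positive and 18 more negative in non-Treg cells. Over all 12881 genes, 716 were more positive and 469 more negative. These counts are with the deposited scaling, and the CD3 scale moves the median difference of all genes by 0.55.

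**Figure D5:**
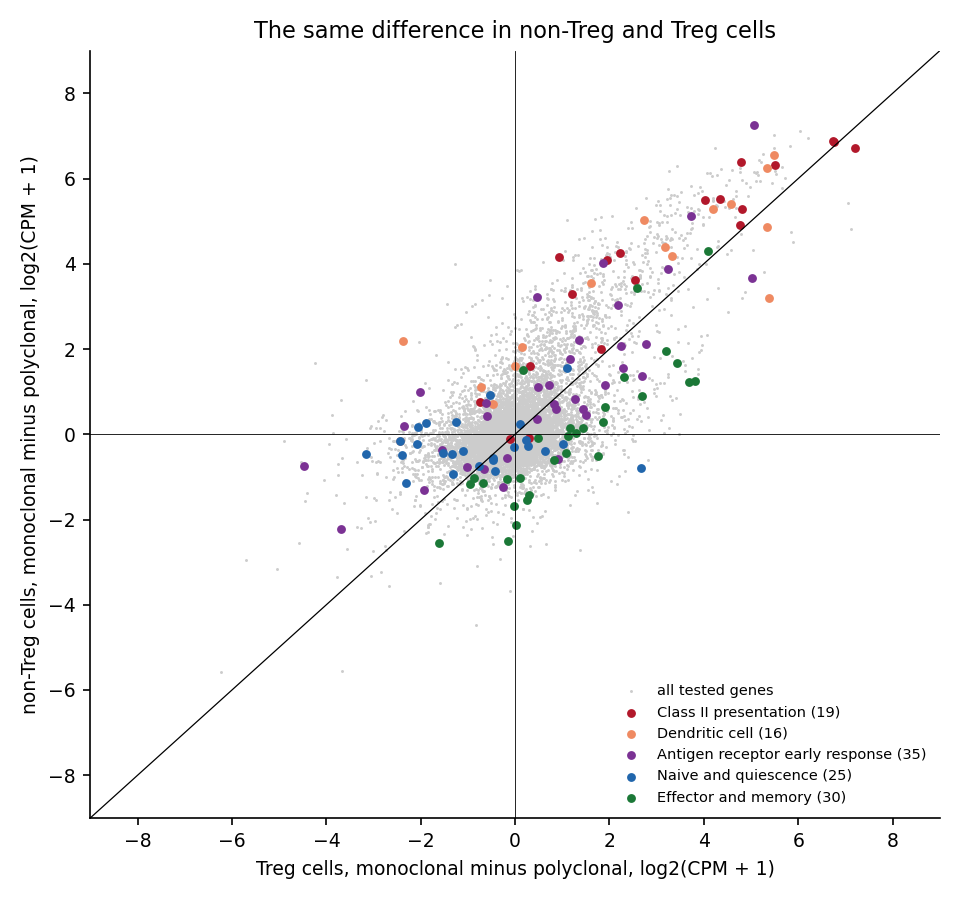
Difference between monoclonal and polyclonal cells on the log2(CPM + 1) scale in Treg cells (x axis) and in non-Treg cells (y axis) for every tested gene, with 5 gene lists coloured, their number of genes in the legend, and a line of equal difference. Naive genes lie mostly above the line and effector and memory genes mostly below it.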

How the data were processed

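Spleen CD4+ cells were sorted by the Foxp3 reporter and sequenced as 50-base single-end, strand-preserving reads after poly-dT selection, per the labels' protocols. Tools listed in the submitters' processing notes are STAR 2.4.1a, HOMER 4.7, Trimmomatic 0.33, edgeR, FastQC 0.10.1 and CASAVA 1.8.2, with the build mm9 and no role or setting for any of them. The authors deposited CPM per gene (24016 genes, 8 libraries), with replicates not pooled. Dividing by the step worth 1 read gave whole reads for all values within 0.01 read, so depth is known.

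A gene was tested if 2 or more libraries reached 1 CPM, which left 12881, and log2(CPM + 1) was fitted with limma 3.58.1 (R 4.3.3, trended and robust variances, 4 group means over 8 libraries, 4 residual degrees of freedom). All 4 groups share the estimate of the spread. The contrasts were monoclonal minus polyclonal non-Treg cells, and its difference from the same contrast in Treg cells, with Benjamini-Hochberg adjustment. edgeR 4.0.16 on the recovered reads, other pseudocounts (0.25 and 4 CPM), filters (none, 5 CPM), TMM and CD3 scaling, the 4 libraries alone, a replicate block and leaving out each library were the alternatives. In simulated counts, 59% of genes changed 2-fold and 96% of genes changed 4-fold were called, and 11 of 12681 unchanged genes were. The changed genes, 100 for each fold, were drawn from genes with a mean of at least 8 CPM, with as many increases as decreases. These rates therefore do not carry over to lower genes, or to the larger and uneven set of differences found here. Over all genes, deviations of same-letter libraries correlated at -0.093 to 0.097 between groups. The highest values were those between Treg and non-Treg libraries of the same strain (0.097 monoclonal, 0.075 polyclonal). Correlations over all genes cannot tell whether same-letter libraries share a mouse or a sort. Single genes, such as Hspa1a and Hspa1b, did follow the letter in all 4 groups.

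Members and gene lists were chosen with earlier results of these data known. The text names the 15 largest called changes in each direction at a mean log2 level of at least 3 with separated libraries, skipping unnamed loci, up to 5 of the largest called members of each list, uncalled members where a sentence counts them, the genes of the label checks, genes without reads in 1 group, and genes whose replicates differ most. Tcf7, Il7r, Itgb1, Cxcr3, Cd44, Ccr2, Cd5, Cd69, Egr2, Tnfrsf9, Nr4a1, Dtx1, Ctss, Lgmn, Rfx5, Dpp4, Traf1, Satb1, Bach2, Entpd1, Swap70, Ctsz, Ifi30 and the H2-DM, H2-O and H2-Eb2 genes were chosen after their values were seen. Not every gene that the rule allows is named, and results for a few list members are not reported here. Promoter windows come from RefSeq (GRCm38.p6).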

Additional observations from a re-analysis of the deposited data

Results flagged for a closer look

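Each result here is a gene whose difference between monoclonal and polyclonal cells (log2 scale) was not the same in non-Treg and Treg cells by limma's test of that difference (adjusted p below 0.05). The value is the difference in non-Treg cells minus that in Treg cells, and no explanation was tested.

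Tgfbi, Rtn1, Ptgs2 and Adam23 are in none of the lists and are given with the class II and antigen-presenting cell genes. Among these, the value was more positive in non-Treg cells for Tlr7 (4.15), H2-Ob (3.25), Cd72 (2.94), Tgfbi (2.48), Esam (2.42) and Cr2 (2.41). Next in size came Emr1 (2.41), Zbtb46 (2.31), Havcr2 (2.29), Rtn1 (2.27), Clec4a4 (2.16) and H2-DMa (2.15). Ctsz (2.07), H2-Oa (2.02), Wdfy4 (1.86), Csf1r (1.86), Ptgs2 (1.86) and Dpp4 (1.83) followed. Values further down were those of Ciita (1.60), Rfx5 (1.49), Adam23 (1.32), Ctss (1.27), Traf1 (1.19) and Tbc1d8 (1.11). Next in size came Ifi30 (1.08), Dtx1 (1.05) and Cd74 (0.82).
For immediate early and receptor response genes, the value was more positive in non-Treg cells for Nr4a3 (3.72), Egr2 (2.998), Nr4a1 (2.75), Egr3 (2.56), Atf3 (2.20) and Egr1 (2.16). Next in size came Fosb (1.41).
It was more negative in non-Treg cells for Themis (-1.49), Cd69 (-1.48), Icos (-0.98), Cd28 (-0.75), Lat (-0.72) and Cd3e (-0.62).
In the naive, effector and memory lists, the value was more positive in non-Treg cells for Bach2 (2.71), Ccr7 (2.29), Tcf7 (1.90), Satb1 (1.85) and Igfbp4 (1.47).
It was more negative in non-Treg cells for Il7r (-3.47), Ccr2 (-2.57), Itgb1 (-1.80) and Cxcr3 (-1.71), and in other lists for Klrd1 (-1.74) and Nt5e (-1.46). Next in size came Cd44 (-0.89).
Of helper, follicular, Treg and related T cell genes, the value was more positive in non-Treg cells for Lrrc32 (2.80), Lag3 (2.22), Entpd1 (1.99), Swap70 (1.94), Foxp3 (1.89) and Ahr (1.73). Next in size came Ebi3 (1.61), Bcl6 (1.47) and Il2ra (1.25).
It was more negative in non-Treg cells for Il21 (-3.65), Zbtb16 (-3.57) and Maf (-2.35), and outside the lists for Emp1 (-2.60) and St6galnac1 (-2.34).
Among the remaining genes, the value was more positive in non-Treg cells for Hk2 (2.36), Tfrc (1.49), Slc2a3 (0.95) and Hspa5 (0.62).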

How the results depend on the processing

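Compared with 2505 genes, the non-Treg comparison called 4413 genes in the fit on its 4 libraries alone (2188 higher, 2225 lower, 2 residual degrees of freedom) and 1373 to 1627 without 1 library, a fit with fewer samples. It called 2171 to 2782 genes under the pseudocounts, filters, TMM and CD3 scalings and 1975 in edgeR (1424 higher, 551 lower). CD3 scaling gave 2652 higher and 130 lower, and TMM 1689 higher and 663 lower. The comparison with Treg cells called 756 genes with no filter on low values (1185 with it), 1717 under CD3 scaling, 947 in edgeR and 361 to 579 without 1 library. With a replicate block, the non-Treg comparison called 2393 genes and the comparison with Treg cells 1094, and of the genes in the text Cd4 lost its call. Cd4 and Tcf7 changed sign, both under CD3 scaling and neither passing the test there, at 0.18 for Cd4 and 0.0076 for Tcf7. The cause was not tested. Of 190 called genes that the naming rule or the text picks, 126 were called under every alternative, 32 lost the call under CD3 scaling, 43 without a library and 21 in edgeR. Genes under about 0.2 CPM in both groups are beyond what this depth shows.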

Other observations

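Of 15 glycolysis genes, 3 were higher and 1 lower, with a median of 0.013, beside 12.1% and 7.35% of all genes, and on the CD3 scale 7 were higher and 0 lower. Hk2, the inducible hexokinase, measured 36.0 and 59.6 CPM in monoclonal and 5.06 and 4.45 CPM in polyclonal non-Treg cells (3.04 ± 0.30, adjusted p = 3.76e-06), and Slc2a3, a glucose transporter, 176 and 185 against 69.7 and 73.5 CPM. Pfkp, a phosphofructokinase, was lower at 143 and 124 against 204 and 208 CPM, a call lost on the CD3 scale (-0.13) and without monoclonal replicate B or either polyclonal replicate. Of 27 cell cycle genes, 1 was lower and 0 higher, fewer than the 7.35% and 12.1% of all genes. The lower one was Mki67, the proliferation marker, at 92.8 and 103 against 153 and 154 CPM. Its call was lost on the CD3 scale (-0.14) and without monoclonal replicate A or either polyclonal replicate. The list's median of -0.37 turned to 0.11 on the CD3 scale. Hspa5, the chaperone of the endoplasmic reticulum, was the 1 called of 12 heat shock genes, at 783 and 746 against 444 and 485 CPM. Of all genes, 19.4% were called.

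Tfrc, the transferrin receptor, measured 289 and 339 CPM in monoclonal and 80.8 and 63.5 CPM in polyclonal cells. The globin genes Hba-a1 and Hbb-b1 stayed at or below 28.8 CPM and were called higher in monoclonal cells, by 2.30 and 2.29. The call of Hba-a1 was lost without replicate B of either group. Of 15 erythroid and platelet genes tested, Tfrc and the globins included, 5 were higher and 1 lower, beside 12.1% and 7.35% of all genes. Among class I genes, B2m, the shared light chain, measured 2277 and 2128 against 1527 and 1626 CPM, a call lost without any 1 library. Nlrc5, the transactivator of class I, measured 501 and 454 against 688 and 689 CPM, a call lost on the CD3 scale (-0.027) and without monoclonal replicate B or either polyclonal replicate. Under CD3 scaling 10 of 18 class I genes were higher and 0 lower, against 1 and 2 as deposited.

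The inducible heat shock genes Hspa1a and Hspa1b were among those whose replicates differed most in both groups. For Hspa1a, A and B measured 23.5 and 169 CPM in the monoclonal group and 32.5 and 72.4 CPM in the polyclonal group, and Hspa1b 22.2 and 178 and 54.6 and 133 CPM. In monoclonal and polyclonal Treg libraries Hspa1a measured 15.4 and 59.4 and 19.0 and 45.7 CPM and Hspa1b 21.9 and 75.4 and 35.0 and 90.6 CPM, so replicate B exceeded A in all 4 groups. The 17 neutrophil genes of the report also split the monoclonal Treg libraries, with sums of 1794 CPM in replicate A and 378 CPM in replicate B.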
